A study of Homo sapiens with 6 samples.

Results

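The homeobox genes of HOX paralog group 9 and the TALE cofactors of HOX proteins were described in MKN-74 cells carrying HOXD9 lentivirus (LV-HOXD9) or the empty vector (LV-Vector). The genes were chosen by name, with earlier results of these data known. Of the 9 named genes, 7 were among the 12385 genes of the table: HOXD9, HOXB9, HOXC9, PBX2, PBX3, PBX4 and PKNOX1. HOXA9 and MEIS2 were not analysed here, because the table used here has no row for either. The table had been filtered to genes whose mean reached 0.5 FPKM in at least 1 group, where FPKM is a fragment count scaled by transcript length and library size. MKN-74 is an established human gastric cancer line that grows as epithelial-like cells. Each group had 3 sequenced libraries. Both groups received lentivirus and were selected with puromycin. The vector named in the methods has a Ubi promoter, a FLAG tag sequence, green fluorescent protein and puromycin resistance, so the LV-Vector cells carry these parts too, and the HOXD9 insert is not under the control of the HOXD cluster. Each library is labelled a biological replicate, but nothing states that separate transductions were made, and p-values thus cover the spread between these samples, which may be technical.

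HOX proteins are homeodomain transcription factors encoded in clusters A to D, and genes at the same place in different clusters are paralogs that bind similar sites. Group 9 is one of the posterior groups, which help to pattern the hind part of the body axis, the limbs and the urogenital tract. HOX proteins bind DNA together with TALE proteins, whose homeodomain has an extra loop between its first and second helices. The PBX proteins contact HOX proteins directly, and MEIS and PREP proteins (PREP1 is encoded by PKNOX1) bind PBX and help to bring it into the nucleus.

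The homeoboxes of the paralogs are shown because their likeness decides how far short reads can tell the paralogs apart. They were taken from the transcripts of GENCODE release 29 that carry the members, and each lies whole in exon 2 of 2. Capitals mark the bases of HOXB9 and HOXC9 that differ from HOXD9.
HOXD9: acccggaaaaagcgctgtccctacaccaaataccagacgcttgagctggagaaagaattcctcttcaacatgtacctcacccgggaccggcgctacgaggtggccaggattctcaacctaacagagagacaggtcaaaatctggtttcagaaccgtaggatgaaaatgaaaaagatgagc
HOXB9: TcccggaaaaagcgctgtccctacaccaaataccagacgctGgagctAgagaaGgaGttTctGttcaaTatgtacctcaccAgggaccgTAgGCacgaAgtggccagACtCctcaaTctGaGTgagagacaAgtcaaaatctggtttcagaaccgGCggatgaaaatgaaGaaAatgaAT
HOXC9: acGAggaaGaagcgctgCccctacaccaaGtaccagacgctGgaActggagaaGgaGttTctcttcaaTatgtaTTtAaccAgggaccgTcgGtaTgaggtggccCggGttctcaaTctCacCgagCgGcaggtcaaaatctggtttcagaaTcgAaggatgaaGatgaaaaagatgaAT
The 180 bases of the HOXD9 homeobox shared 152 with HOXB9 (84.4%) and 150 with HOXC9 (83.3%). The encoded homeodomains of 60 residues were more alike, with 55 residues identical between HOXD9 and HOXB9 and 58 between HOXD9 and HOXC9. The longest run common to the HOXD9 and HOXB9 transcripts was 40 bases, from base 2 to base 41 of the homeobox, while HOXD9 and HOXC9 shared at most 23 bases in a row. Of the 1840 stretches of 31 bases in the HOXD9 transcript, 10 also occurred in HOXB9 and 0 in HOXC9. The part of the HOXD9 transcript that cannot be told from HOXB9 over such a length was therefore short.

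The TALE homeoboxes have 189 bases, and 2 of them are shown for the extra loop, whose proline-tyrosine-proline codons are in capitals.
PBX2: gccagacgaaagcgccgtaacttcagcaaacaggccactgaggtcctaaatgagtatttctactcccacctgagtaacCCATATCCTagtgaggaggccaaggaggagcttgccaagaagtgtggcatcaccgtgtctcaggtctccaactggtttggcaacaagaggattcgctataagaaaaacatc
PKNOX1: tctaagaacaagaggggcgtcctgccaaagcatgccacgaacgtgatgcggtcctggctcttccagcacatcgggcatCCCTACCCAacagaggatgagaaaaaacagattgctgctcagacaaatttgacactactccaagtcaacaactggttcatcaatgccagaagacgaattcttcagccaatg
PBX2 and PBX3 had 79.9% of these bases in common and 61 of 63 residues, and PBX2 and PBX4 had 79.4% of bases in common and 57 residues. PKNOX1 shared 46.0% of bases with PBX2 and with PBX3, and 49.2% with PBX4. No stretch of 31 bases was shared between any pair of the 4 TALE members (0 in each pair).

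HOXD9 was nearly silent in LV-Vector cells and was the most abundant member in LV-HOXD9 cells. It is a single-transcript gene in the table (ENSG00000128709, GRCh37 chr2:176987448-176989665, plus strand). HOXD9 had 26.6, 26.4 and 31.3 FPKM in the LV-HOXD9 libraries, against 0, 0.0413 and 0.0309 FPKM in the LV-Vector libraries. The groups were far apart, where 10.9% of all genes lay above without overlap, and the LV-HOXD9 libraries lay close together, at 28.1 ± 2.79 FPKM (SD, n = 3), against 0.0241 ± 0.0215 FPKM in LV-Vector (SD, n = 3). The log2 fold change on log2(FPKM + 1) was 4.82 (SE 0.087, 95% interval 4.62 to 5.03, adjusted p = 2.68e-06 from limma), which understates the change of a gene so near 0. With a pseudocount of 0.1 in place of 1 it was 7.84. HOXD9 had the smallest p of the 12385 genes, but it is the overexpressed gene, so this checks the labels. It is in the table only through LV-HOXD9. The exact two-sided permutation test gave p = 0.10, which is the smallest it can give with 3 libraries against 3. The transcript HOXD9-201 had the same FPKM values as the gene (adjusted p = 0.000542 from limma over 40304 transcripts). Of its 1870 bases, 1059 are coding with the stop codon (56.6%). RNA made from the insert and RNA made from the HOXD cluster are not separated by FPKM.

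HOXB9, the paralog that led group 9 in LV-Vector cells, was lower in all 3 LV-HOXD9 libraries, but it did not pass the test over all genes. It (ENSG00000170689) lies at GRCh37 chr17:46698521-46703718 on the minus strand. HOXB9 had 8.15, 8.83 and 7.93 FPKM in the LV-HOXD9 libraries, against 13.5, 10.9 and 12.2 FPKM in the LV-Vector libraries. The highest LV-HOXD9 value thus stayed below the lowest LV-Vector value, as in 17.5% of all genes. The mean was 8.31 ± 0.466 FPKM in LV-HOXD9, against 12.2 ± 1.30 FPKM in LV-Vector (SD, n = 3 each), a difference of -32.1% of the LV-Vector mean. The log2 fold change was -0.50 (SE 0.089, 95% interval -0.72 to -0.29, unadjusted p = 0.000812, adjusted p = 0.0967 from limma, exact permutation p = 0.10). HOXB9 ranked 104 of 12385 genes by p. Its transcript has 55.3% GC, against a median of 49.7% over genes. With the trends of each library with GC content and length of the genes removed, its adjusted p was 0.0316 from limma at a log2 fold change of -0.52, while 3.00% of 12054 genes passed in that fit and 1.26% were lower. In the transcript table HOXB9-201 carried the same FPKM values, with an adjusted p of 0.59 from limma over the 40304 transcripts.

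HOXB9 was also set against HOXB5, HOXB6, HOXB7 and HOXB8 within each library, a comparison added after the data were seen. The ratio of HOXB9 to HOXB5 in FPKM was 1.16, 1.33 and 1.06 in the LV-HOXD9 libraries, against 1.80, 1.59 and 1.90 in the LV-Vector libraries. The ratio of HOXB9 to HOXB6 was 0.533, 0.734 and 0.570 in the LV-HOXD9 libraries, against 0.954, 0.962 and 0.958 in the LV-Vector libraries. Neither ratio overlapped between the groups (exact permutation p = 0.10 each, the smallest possible). The ratio of HOXB9 to HOXB8, its next neighbour, was 10.0, 14.4 and 9.17 in the LV-HOXD9 libraries, against 10.6, 8.48 and 13 in the LV-Vector libraries. That to HOXB7 was 31.2, 13.4 and 18.1 in the LV-HOXD9 libraries, against 21.4, 13.6 and 12.4 in the LV-Vector libraries. Both of these overlapped (exact permutation p = 0.80 and 0.60). HOXB9 was thus lower relative to HOXB5 and HOXB6 and not detectably so relative to HOXB8, which was low in level and variable. HOXB7, also low and variable, met the filter of 0.5 FPKM only through LV-Vector. Its lower LV-HOXD9 level follows from the filter, so no conclusion is drawn from the ratio to HOXB7. The HOXB9 gene model lies whole within that of HOXB7 on the same strand (5198 bases). How reads of shared parts were divided between them is not given in the sources used here, so the levels of both are uncertain to that extent. The only listed HOXB7 transcript, HOXB7-201 (chr17:46684589-46688382), does not overlap HOXB9. It averaged 0.506 FPKM in LV-HOXD9, against 0.9 FPKM in LV-Vector.

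HOXC9, the paralog of the HOXC cluster, was low in both groups and did not differ beyond its spread. It (ENSG00000180806) lies at GRCh37 chr12:54388679-54397121 on the plus strand, whole within the model of HOXC6 on the same strand (8443 bases), and 1891 bases overlap the antisense gene HOXC-AS2. HOXC9 had 1.01, 0.993 and 1.19 FPKM in the LV-HOXD9 libraries, against 0.963, 1.30 and 1.05 FPKM in the LV-Vector libraries. The groups overlapped, and the log2 fold change was -0.027 (95% interval -0.24 to 0.18, adjusted p = 0.878 from limma, exact permutation p = 0.70). The interval covers differences in either direction. HOXC9-201, its only listed transcript, averaged 1.05 ± 0.0934 FPKM in LV-HOXD9, against 1.00 ± 0.14 FPKM in LV-Vector (SD, n = 3 each).

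**Figure D1:**
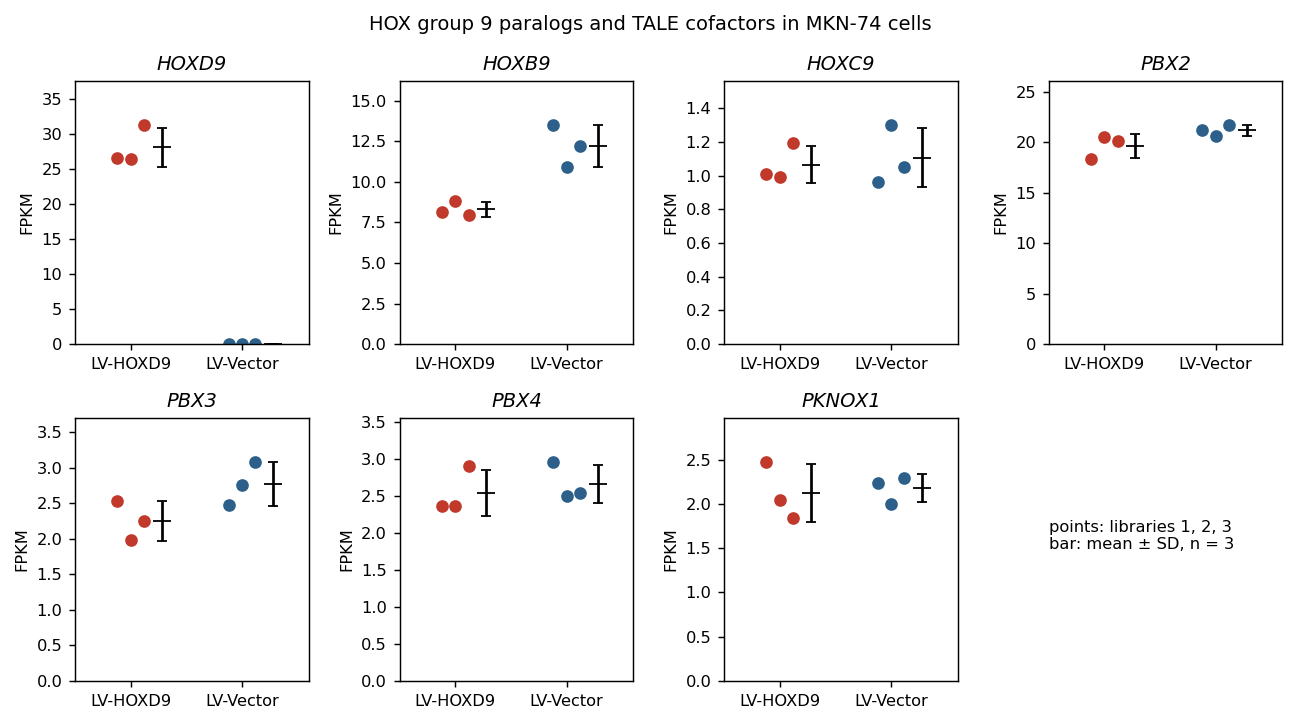
FPKM of the 7 members in each library of LV-HOXD9 (red, left) and LV-Vector (blue, right), 1 panel per gene with its own axis from 0; points are libraries 1, 2 and 3 and bars are mean ± SD. HOXD9 lies at 26.4 to 31.3 FPKM in LV-HOXD9 and at 0 to 0.0413 FPKM in LV-Vector, HOXB9 is lower in every LV-HOXD9 library, and HOXC9, PBX3, PBX4 and PKNOX1 overlap between the groups.

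The make-up of group 9 RNA differed between the groups, with HOXD9 leading in LV-HOXD9 cells and HOXB9 in LV-Vector cells. HOXD9 is the overexpressed gene, so a higher HOXD9 share in LV-HOXD9 cells was set by the design and the shares are a description. FPKM is per length, so the paralogs can be summed. The sum of HOXD9, HOXB9 and HOXC9 was 35.7, 36.2 and 40.4 FPKM in the LV-HOXD9 libraries, against 14.5, 12.3 and 13.3 FPKM in the LV-Vector libraries. HOXD9 made up 74.4%, 72.9% and 77.4% of it in the LV-HOXD9 libraries, against 0%, 0.337% and 0.232% in the LV-Vector libraries. HOXB9 made up 22.8%, 24.4% and 19.6% in the LV-HOXD9 libraries, against 93.3%, 89.1% and 91.9% in the LV-Vector libraries. The lower HOXB9 share came mostly from the HOXD9 term in the sum, since the HOXB9 mean itself differed by -32.1%. In LV-HOXD9 cells HOXD9 was 2.99 to 3.95 times as abundant per length as HOXB9. How much of the HOXD9 transcript the lentiviral insert carries is not given in the sources used here. A shorter insert would make this ratio and the HOXD9 shares too low. Without HOXD9, and with HOXA9 not analysed here, the sum of HOXB9 and HOXC9 was 9.37 ± 0.394 FPKM in LV-HOXD9, against 13.3 ± 1.13 FPKM in LV-Vector (SD, n = 3 each), a ratio of 0.703 (exact two-sided permutation p = 0.10, the smallest possible).

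**Figure D2:**
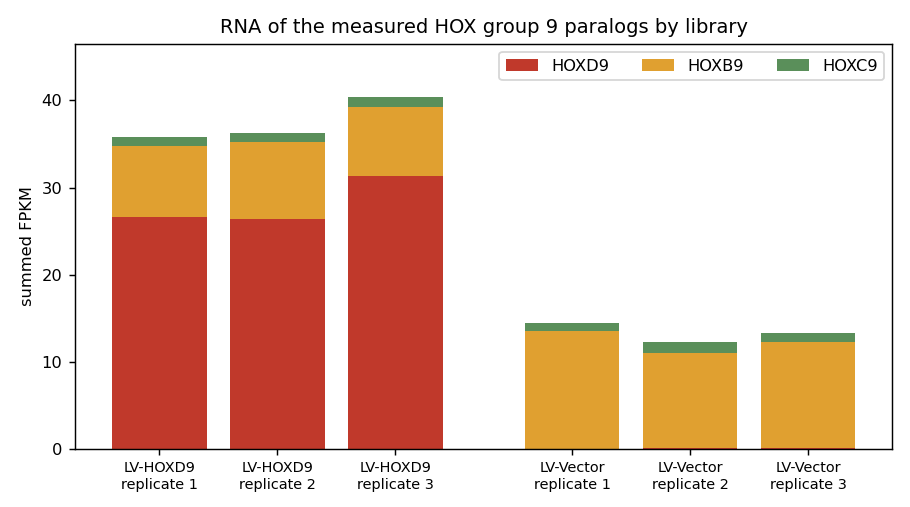
Stacked FPKM of HOXD9 (red), HOXB9 (yellow) and HOXC9 (green) in each of the 3 LV-HOXD9 libraries (left) and the 3 LV-Vector libraries (right). The stacks reach 35.7 to 40.4 FPKM in LV-HOXD9, mostly HOXD9, and 12.3 to 14.5 FPKM in LV-Vector, mostly HOXB9.

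Among the TALE cofactors, PBX2 was by far the most abundant in both groups, and none of the 4 passed limma (0 at an adjusted p under 0.05, where 0.202% of all genes passed, and 0 at an unadjusted p under 0.05). PBX2 is a broadly expressed PBX gene in the major histocompatibility region (ENSG00000204304, GRCh37 chr6:32152518-32157963, minus strand). It had 18.3, 20.5 and 20.1 FPKM in the LV-HOXD9 libraries, against 21.2, 20.6 and 21.7 FPKM in the LV-Vector libraries. All LV-HOXD9 values lay below all LV-Vector values, as in 17.5% of all genes, but only just. Means were 19.6 ± 1.18 FPKM in LV-HOXD9, against 21.1 ± 0.528 FPKM in LV-Vector (SD, n = 3 each), with a log2 fold change of -0.10 (95% interval -0.26 to 0.05, adjusted p = 0.394 from limma, exact permutation p = 0.10). Without LV-HOXD9 replicate 1 it was -0.056, and on the TPM scale -0.17. The transcript PBX2-201 overlapped between the groups (exact permutation p = 0.20).

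PBX3, which is best known as a cofactor of HOXA9 in leukaemia, was lower on average in LV-HOXD9 with overlapping groups. PBX3 (ENSG00000167081, GRCh37 chr9:128509624-128729656, plus strand) had 2.54, 1.98 and 2.25 FPKM in the LV-HOXD9 libraries, against 2.48, 2.76 and 3.09 FPKM in the LV-Vector libraries. LV-HOXD9 replicate 1 lay above LV-Vector replicate 1, and this was the overlap. The log2 fold change was -0.21 (95% interval -0.45 to 0.02, adjusted p = 0.292 from limma, exact permutation p = 0.20), and it ran from -0.33 to -0.12 over the alternatives. The gene had 4 listed transcripts, and 1 of them, PBX3-207, was at 1.94 FPKM in LV-Vector replicate 3 and listed at 0 in the other 5 libraries. PBX3-203, whose transcript carries an insert of 63 bases after base 141 of the homeobox, averaged 1.02 ± 0.351 FPKM in LV-HOXD9, against 0.845 ± 0.459 FPKM in LV-Vector (SD, n = 3 each). Relative to their means, the transcripts varied more between LV-Vector libraries than the gene did.

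PBX4, a PBX gene known in mouse for its expression in testis (ENSG00000105717, GRCh37 chr19:19672516-19729725, minus strand), had 2.36, 2.36 and 2.90 FPKM in the LV-HOXD9 libraries, against 2.96, 2.49 and 2.53 FPKM in the LV-Vector libraries. The groups overlapped (log2 fold change -0.048, 95% interval -0.28 to 0.18, adjusted p = 0.796 from limma). PKNOX1, which encodes PREP1 (ENSG00000160199, GRCh37 chr21:44394620-44454041, plus strand), had 2.48, 2.05 and 1.84 FPKM in the LV-HOXD9 libraries, against 2.24, 2.00 and 2.30 FPKM in the LV-Vector libraries. These groups also overlapped (log2 fold change -0.030, 95% interval -0.26 to 0.20, adjusted p = 0.878 from limma).

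The 2 listed transcripts of PKNOX1 shifted in opposite directions in 1 library. PKNOX1-201 had 3.60, 2.59 and 0.841 FPKM in the LV-HOXD9 libraries, against 3.32, 2.88 and 3.34 FPKM in the LV-Vector libraries. PKNOX1-203 had 0.0236, 0.198 and 1.72 FPKM in the LV-HOXD9 libraries, against 0, 0.0146 and 0.00566 FPKM in the LV-Vector libraries. LV-HOXD9 replicate 3 was the lowest library for the one and the highest for the other, and its gene value was the lowest of the 6 libraries. For PKNOX1-203 the groups did not overlap, as in 15.4% of all transcripts. Neither transcript passed limma (adjusted p = 0.76 and 0.737 over 40304 transcripts). The same library followed the GC content of genes most closely (Spearman's rho of 0.659 between the deviation of each gene from its mean and its GC content, against -0.601 to 0.231 in the other 5), and the part of this in the transcript values was not tested.

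The 4 TALE members together had 25.7, 26.9 and 27.1 FPKM in the LV-HOXD9 libraries, against 28.8, 27.8 and 29.6 FPKM in the LV-Vector libraries (ratio of means 0.923, exact permutation p = 0.10). PBX2 was 71.2% to 76.2% of this sum in LV-HOXD9, against 73.2% to 74.0% in LV-Vector. Set against the 3 paralogs, the TALE members stood at 0.718, 0.742 and 0.671 FPKM per FPKM of group 9 RNA in the LV-HOXD9 libraries, against 1.99, 2.27 and 2.22 in the LV-Vector libraries. The RNA of these 4 members thus outweighed that of the 3 paralogs in LV-Vector cells and was below it in LV-HOXD9 cells. This difference came mostly from the HOXD9 term. Other TALE genes, such as IRX2 (mean 10.3 FPKM in LV-HOXD9), are outside the sum, so the comparison does not cover all TALE RNA. The sum uses gene values, and the listed transcripts of PBX2, PBX4 and PKNOX1 had other levels.

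At baseline, in LV-Vector cells, the members ordered as PBX2 (21.1 ± 0.528 FPKM), HOXB9 (12.2 ± 1.30), PBX3 (2.78 ± 0.305), PBX4 (2.66 ± 0.262), PKNOX1 (2.18 ± 0.157), HOXC9 (1.10 ± 0.173) and HOXD9 (0.0241 ± 0.0215; SD, n = 3 each). PBX3 and PBX4 had overlapping ranges, and every other pair of neighbours in this order was separate. PBX2 lay above 85.5% and HOXB9 above 73.4% of the genes of the table, while PBX3, PBX4 and PKNOX1 lay above 25.6% to 31.2%. In LV-HOXD9 cells HOXD9 came first, followed by PBX2 and HOXB9, each apart from the others, and PBX3, PBX4 and PKNOX1 overlapped one another.

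Of the 7 members, 1 rose (HOXD9) and 0 fell at an adjusted p under 0.05 from limma, where 0.202% of all genes passed, 0.0565% as higher and 0.145% as lower. At an unadjusted p under 0.05, HOXB9 was also lower, where 11.9% of all genes were. HOXD9, HOXB9 and PBX2, or 3 of 7, did not overlap between the groups, against 28.4% of all genes. The log2 fold change was negative in 6 of 7 members, of which HOXC9, PBX4 and PKNOX1 changed sign under other settings, against 59.9% of all genes, and the median over the 7 was -0.048, against -0.044 over all genes. Without HOXD9, 6 of 6 were negative and 2 of 6 lay below without overlap, against 17.5% of all genes. Of the 11 transcripts of the members, 1 passed (HOXD9-201), against 0.0992% of all transcripts. Its adjusted p from limma was 0.139 with the replicate block and 0.148 with LV-HOXD9 replicate 3 and LV-Vector replicate 2 both left out, so the transcript call did not hold there, while the gene passed in both.

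The other genes of the HOX clusters were given by a list of 35, of which 11 were in the table, all of them in the HOXB and HOXC clusters. No gene of the HOXA cluster and no HOXD gene beside HOXD9 was analysed here. None of the 11 passed limma (0 called), and 2 were lower at an unadjusted p under 0.05, where 11.9% of all genes were. Likewise 2 of 11 lay below without overlap, against 17.5% of all genes. HOXB8 had 0.815, 0.611 and 0.865 FPKM in the LV-HOXD9 libraries, against 1.27, 1.29 and 0.942 FPKM in the LV-Vector libraries, with no overlap (log2 fold change -0.30, adjusted p = 0.211 from limma). HOXB7 had 0.261, 0.661 and 0.439 FPKM in the LV-HOXD9 libraries, against 0.631, 0.802 and 0.989 FPKM in the LV-Vector libraries (log2 fold change -0.32, adjusted p = 0.247 from limma). HOXB7, HOXB8 and HOXB9 stand side by side in the cluster and had, in the main setting, the 3 lowest log2 fold changes of the HOX genes measured, a grouping chosen after its values were seen. HOXB7 met the filter of 0.5 FPKM only through LV-Vector (mean 0.807 FPKM, against 0.454 FPKM in LV-HOXD9). Its direction thus follows from the filter and lends nothing to the grouping, and it is 1 of the 2 lower at an unadjusted p under 0.05. HOXB6 and HOXB5, the next genes of the cluster, overlapped between the groups, at 7.05 ± 0.41 FPKM in LV-HOXD9, against 6.93 ± 0.528 FPKM in LV-Vector for HOXB5, and at 13.7 ± 1.65 FPKM in LV-HOXD9, against 12.8 ± 1.41 FPKM in LV-Vector for HOXB6 (SD, n = 3 each). HOXB3 had a log2 fold change of -0.15 with overlap. HOXB13, at the far end, had a log2 fold change of -0.12 without overlap (adjusted p = 0.404 from limma).

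In the HOXC cluster, HOXC4, HOXC5, HOXC6, HOXC8 and HOXC13 had log2 fold changes of 0.014 to 0.076, all with overlapping groups. HOXC8 met the filter of 0.5 FPKM only through LV-HOXD9 (mean 0.522 FPKM, against 0.445 FPKM in LV-Vector). HOXC13 was the most abundant, at 7.11 ± 0.298 FPKM in LV-HOXD9, against 7.03 ± 0.267 FPKM in LV-Vector (SD, n = 3 each), and its range lay above that of HOXC9 in both groups. HOXC-AS2, the 1 lncRNA of 21 listed for the clusters that was in the table, had a log2 fold change of 0.10 at an adjusted p of 0.60 from limma. The median over the 11 other HOX genes was 0.020, against -0.044 over all genes, and ran from -0.034 to 0.041 with 1 library left out.

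**Figure D3:**
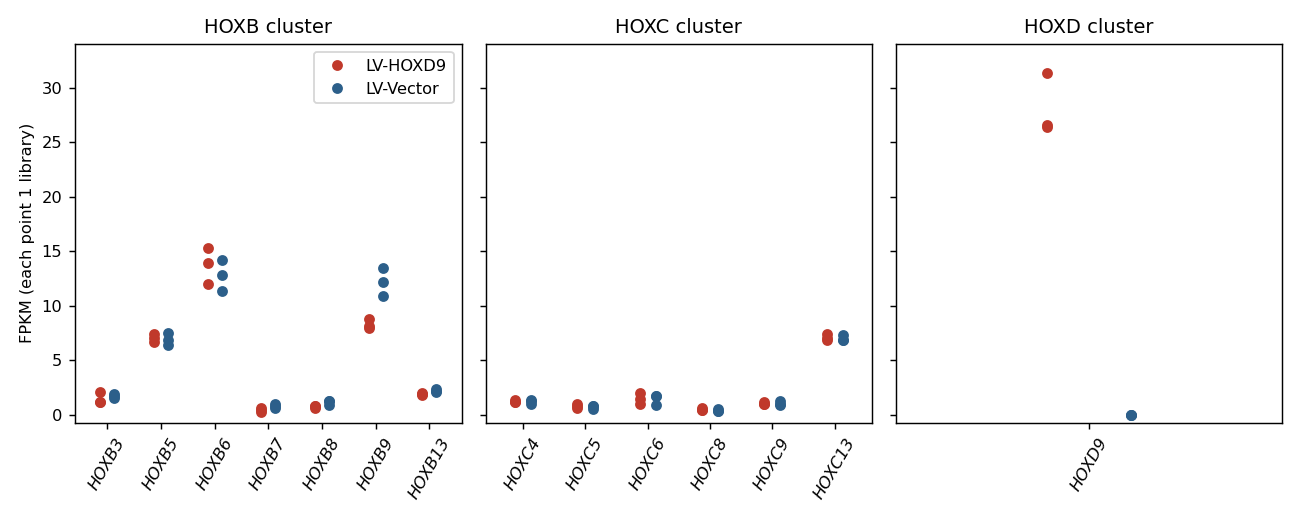
FPKM of the HOX genes in the table by cluster, in paralog order, for LV-HOXD9 (red, left of each pair) and LV-Vector (blue, right); each point is 1 library and all panels share 1 axis. HOXB6 and HOXB9 lead the HOXB cluster, HOXC13 leads the HOXC cluster, and HOXD9 stands alone in the HOXD panel.

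Of 12 other TALE genes listed, 5 were in the table and 0 passed limma, also at an unadjusted p under 0.05. MEIS3, a MEIS gene, had a log2 fold change of -0.081, and TGIF1, a corepressor of SMAD signalling, one of -0.061, both with overlap. IRX2, an Iroquois homeobox gene, was higher in all 3 LV-HOXD9 libraries, at 10.3 ± 0.615 FPKM in LV-HOXD9, against 9.54 ± 0.0821 FPKM in LV-Vector (SD, n = 3 each; adjusted p = 0.429 from limma), and IRX5 had a log2 fold change of 0.026. TGIF2, a relative of TGIF1, was the most variable, with 4.72, 12.2 and 8.48 FPKM in the LV-HOXD9 libraries, against 11.7, 2.56 and 1.5 FPKM in the LV-Vector libraries. Its spread within a group exceeded the difference between the groups (log2 fold change 0.89, 95% interval -0.55 to 2.33).

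**Figure D4:**
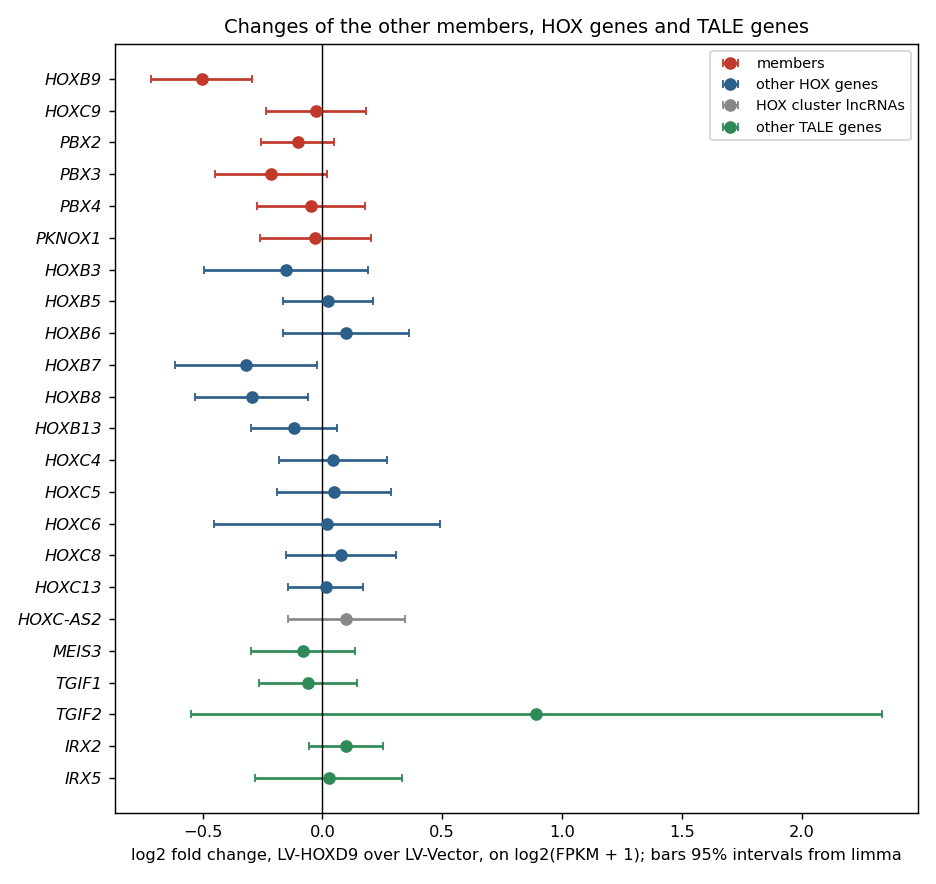
Log2 fold change of LV-HOXD9 over LV-Vector on log2(FPKM + 1) with 95% intervals from limma, for the members other than HOXD9 (red), the other HOX genes (blue), the HOX cluster lncRNA (grey) and the other TALE genes (green). HOXB9 lies at -0.50 with an interval of -0.72 to -0.29, those of HOXB7 and HOXB8 also lie below 0, the others span 0, and TGIF2 has the widest. HOXB7 met the filter of 0.5 FPKM only through LV-Vector, so its direction follows from the filter.

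Of 18 listed proteins that work with HOX and TALE factors, 16 were in the table and 0 passed limma, with 1 higher and 2 lower at an unadjusted p under 0.05, where 7.12% of all genes were higher and 11.9% lower. The smallest adjusted p was that of BTG1, a coactivator reported to bind HOXB9. BTG1 had 3.03, 2.88 and 2.60 FPKM in the LV-HOXD9 libraries, against 4.01, 3.78 and 3.92 FPKM in the LV-Vector libraries (log2 fold change -0.36, adjusted p = 0.125 from limma). Its relative BTG2 was higher, at 48.1 ± 1.80 FPKM in LV-HOXD9, against 42.3 ± 2.01 FPKM in LV-Vector (SD, n = 3 each; adjusted p = 0.205 from limma). NCOR1, a corepressor found with PBX proteins, had a log2 fold change of -0.19 at an adjusted p of 0.207 from limma. Of 39 Trithorax and Polycomb genes, which keep HOX clusters active or silent, 38 were in the table and 0 passed limma, with 1 higher and 4 lower at an unadjusted p under 0.05, no larger shares than the 7.12% and 11.9% of all genes. JARID2, a partner of the Polycomb complex PRC2, MLLT3, a subunit of the super elongation complex, and KDM6A, an H3K27 demethylase, had log2 fold changes of -0.25, -0.40 and -0.28 (adjusted p = 0.146, 0.17 and 0.232 from limma).

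Of 27 genes listed as published targets of group 9 factors, 15 were in the table and 0 passed limma, with 4 lower and 1 higher at an unadjusted p under 0.05, where 11.9% and 7.12% of all genes were. VEGFA, which encodes an angiogenic growth factor, had 6.56, 6.64 and 7.10 FPKM in the LV-HOXD9 libraries, against 9.55, 9.55 and 9.82 FPKM in the LV-Vector libraries. All LV-HOXD9 values lay below without overlap, as in 17.5% of all genes (log2 fold change -0.46, adjusted p = 0.0557 from limma). LMO2, a transcriptional cofactor of blood and vessel development, had a log2 fold change of -0.47 at an adjusted p of 0.11 from limma and RUFY3, which encodes a protein of neuronal polarity, one of -0.27 (adjusted p = 0.185 from limma). The median was -0.025 over the partner proteins, -0.028 over the Trithorax and Polycomb genes and -0.035 over the targets, against -0.044 over all genes. Leaving out 1 library moved these to between -0.031 and 0.021 for the partner proteins, between -0.071 and -0.003 for the Trithorax and Polycomb genes, and between -0.077 and -0.033 for the targets, so no direction is read from them.

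The genes most like HOXD9 were the non-members with the lowest LV-Vector mean among 1303 whose LV-HOXD9 mean reached 1 FPKM with no overlap. AC093525.2 had 0.556, 0.3 and 4.73 FPKM in the LV-HOXD9 libraries, against 0, 0.0167 and 0.0573 FPKM in the LV-Vector libraries, so 1 library carried most of its signal. GALR2, a galanin receptor, was at 1.06 ± 0.192 FPKM in LV-HOXD9, against 0.391 ± 0.0375 FPKM in LV-Vector, and KRT81, a hair keratin, at 1.06 ± 0.291 FPKM in LV-HOXD9, against 0.414 ± 0.137 FPKM in LV-Vector (SD, n = 3 each). None of the 3 passed limma (adjusted p = 0.285, 0.0812 and 0.146). HOXD9 was apart from them in the size of its change, and no gene of the table had a larger log2 fold change. HOXD9 is the overexpressed gene, so this rank checks the labels and is no finding about the members. HOXD9 and these 3 genes had LV-Vector means under 0.5 FPKM, so they are in the table only through LV-HOXD9. The 3 were also chosen for lying above without overlap, so their direction is no result.

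The label of epithelial-like cells was checked on 16 markers, of which 12 were in the table with summed levels of 1140 to 1180 FPKM in LV-HOXD9, against 991 to 1130 FPKM in LV-Vector. KRT18 and KRT19, epithelial keratins, were higher in all LV-HOXD9 libraries, as 10.9% of all genes were. Their log2 fold changes were 0.31 and 0.21 (adjusted p = 0.0905 and 0.173 from limma), and keratins make up most of the sum. CLDN4, a tight junction protein, had a log2 fold change of -0.52 with overlapping groups. Of the 12, 7 had a negative and 5 a positive log2 fold change, with a median of -0.052, and 0 passed limma. Of 13 markers of other cell types, 5 were in the table, at 9.72 to 10.2 FPKM summed in LV-HOXD9, against 10.7 to 12.4 FPKM in LV-Vector. DES, CD68 and COL1A1, named for the smallest p, had log2 fold changes of -0.33, -0.18 and -0.087. Of the 5, 4 had a negative and 1 a positive log2 fold change, and 0 passed limma. All libraries come from the MKN-74 line, and no other cell type was part of the design. Fewer cells of the line carrying an RNA and less of it per cell cannot be told apart in such bulk samples.

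HOXB9 kept its direction under every alternative tried, but most of them could not turn it. Another minimum mean, the replicate block and the other variance models left the estimate at -0.504. Leaving out libraries or changing the pseudocount cannot turn it, because all LV-HOXD9 values lay below all LV-Vector values. Direction was open only on the TPM scale (-0.60), after quantile normalization (-0.47) and with GC content and length trends removed (-0.52). The log2 fold change of HOXB9 ran from -0.60 to -0.44 over 16 alternatives, of which 1, no minimum mean, left the whole fit as it was. Adjusted p-values from limma were 0.0316 to 0.328, and the removal of trends with GC content and length was the only alternative under 0.05. HOXC9, PBX4 and PKNOX1 changed sign under at least 1 alternative each, so no direction is given for them.

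**Figure D5:**
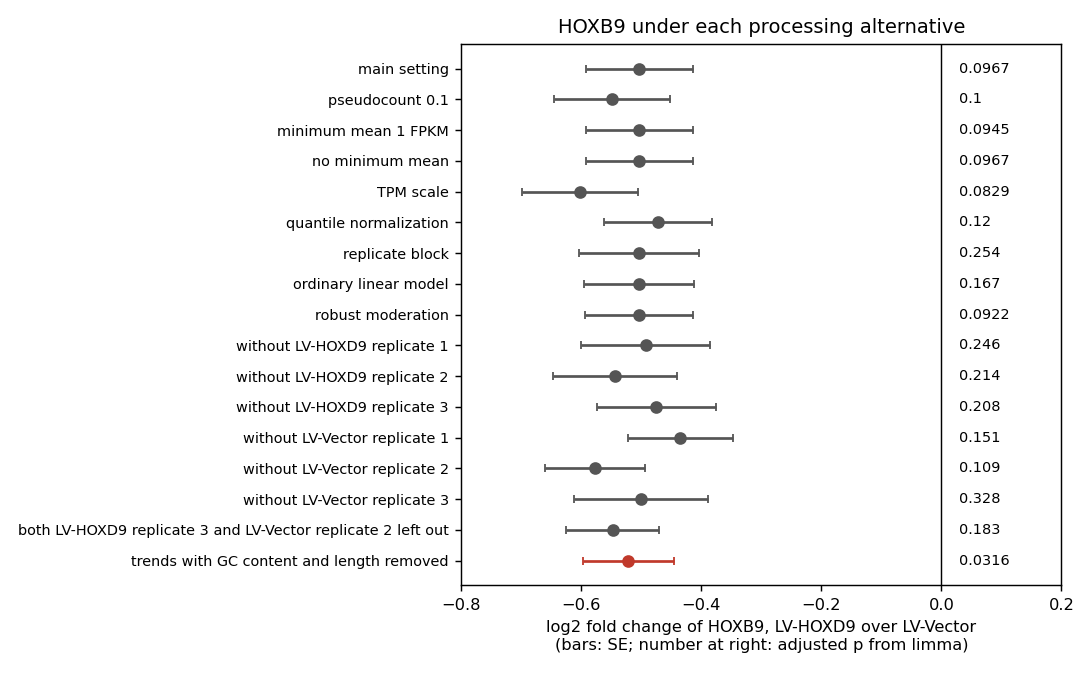
Log2 fold change of HOXB9, LV-HOXD9 over LV-Vector, under the main setting and 16 alternatives; bars are SE and the number at the right is the adjusted p. All values lie between -0.60 and -0.44, and the alternative with trends of GC content and length removed (red, adjusted p = 0.0316 from limma) is the only one under 0.05.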

How the data were processed

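RNA from 3 LV-HOXD9 and 3 LV-Vector libraries of MKN-74 cells was sequenced on an Illumina HiSeq system after preparation with a stranded kit. The submitters' notes name cutadapt, FastQC, HISAT2 and StringTie and the build GRCh37, with no versions in the sources used here. Ballgown gave the deposited FPKM values, which the authors computed for genes and for transcripts. No counts were used, so depth is unknown. Groups were taken from the sample titles.

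Values were compared as log2(FPKM + 1) with limma 3.58.1 (R 4.3.3, variance trend) over genes with a mean of at least 0.1 FPKM, with Benjamini-Hochberg adjustment over all genes, or all transcripts, at 0.05. A pseudocount of 1 understates changes of low genes. Exact permutation tests were two-sided. The members and the lists were chosen with earlier results of these data known. Named were all members, HOX genes, cluster lncRNAs and TALE genes in the table, and from each other list the genes that passed, filled up to 3 by the smallest p. Another TALE gene is not reported here. GC content and homeoboxes were read from GENCODE release 29 transcripts (loess span 0.5, 97.3% of genes matched). The fits were tested on simulated data. Alternatives were another pseudocount, filter, scaling or variance model, a replicate block, leaving out libraries and removal of GC and length trends. Python 3.11.15, pandas 2.3.3, scipy 1.17.1 and matplotlib 3.10.9 were used.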

Additional observations from a re-analysis of the deposited data

How the results depend on the processing

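Of the 16 alternatives, 15 called 1 member, HOXD9 (1 of them, no minimum mean, could not differ, since the minimum removed no gene), and the removal of trends with GC content and length called 2, HOXD9 and HOXB9 (-0.52). That fit called 362 genes in all, against 25 in the main setting, and the cause was not tested. A replicate block called 3 genes and an ordinary linear model 12. The count was 4 without LV-HOXD9 replicate 1, 5 without LV-HOXD9 replicate 2 and 8 without LV-Vector replicate 3. Leaving out 1 library gave HOXD9 log2 fold changes of 4.75 to 4.87 and HOXB9 -0.58 to -0.44, and HOXD9 was at 7.84 with a pseudocount of 0.1 and 6.62 on the TPM scale. Over all alternatives PBX2 ran from -0.17 to -0.056, PBX3 from -0.33 to -0.12, HOXC9 from -0.094 to 0.064, PBX4 from -0.15 to 0.046 and PKNOX1 from -0.11 to 0.076.

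Libraries of the same number did not deviate together (correlations of -0.173, 0.168 and -0.00641), so no pairing by number was seen. These 3 values cannot exclude one, because trends of single libraries with GC content enter them and can hide a shared batch. With the replicate block HOXB9 had an adjusted p of 0.254 from limma, and 0 transcripts of the members passed, as with LV-HOXD9 replicate 3 and LV-Vector replicate 2 both left out. Fewer residual degrees of freedom remain in both fits. Of the published targets, 1 passed on the TPM scale and 2 with GC content and length trends removed, against 0 in the main setting. The median of all genes was -0.11 on the TPM scale and 0.002 after quantile normalization, and that of the other HOX genes was -0.037 and 0.074. Depth is unknown, so its limits were not given.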
